A study of Mus musculus with 6 samples.

Results

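Transcripts of liver sinusoidal and capillary endothelium were measured in macrophages sorted from the liver of mice with diet-induced steatohepatitis. The 10 genes were Stab2, Lyve1, Clec4g, Oit3, Aqp1, Igfbp7, Gpihbp1, Cyp4b1, Clec14a and Adgrf5, taken by symbol from a table of 13886 genes, and all 10 were found. They were selected on measured values of the comparison between genotypes reported here, so their levels are a description and carry no test. Libraries came from Lyz2cre/+.Egr2fl/fl mice (n = 3), in which a Cre driven by the myeloid Lyz2 promoter deletes loxP-flanked Egr2, and from Egr2fl/fl littermates (n = 3), which carry the floxed gene and no Cre, so that effects of Cre itself cannot be told apart from loss of Egr2. Both genotypes were fed CDA-HFD, a choline-deficient high-fat diet with defined amino acids, for a time that the labels of these libraries do not state. The sort kept F4/80-positive cells with CD11b and low Ly6C and left out those with Ly6G. The mice were male by the methods of the study, and the labels give no age. Levels are in TPM, a relative unit of transcripts that divides each gene by its length and each library by its total, so that levels can be compared between genes.

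The liver sinusoid is a capillary whose endothelial cells are perforated, lack an ordinary basement membrane and take up waste macromolecules from blood with scavenger receptors. Kupffer cells, the resident macrophages of the liver, lie inside the sinusoid against this endothelium. Capillaries of muscle and fat have a closed lining and carry the machinery that passes triglyceride-derived fatty acids to the tissue. Stab2, Lyve1, Clec4g and Oit3 are mainly known from sinusoidal endothelium, Gpihbp1 and Cyp4b1 from other capillaries, and Aqp1, Igfbp7, Clec14a and Adgrf5 from endothelium of several beds. Lyve1 is also known from a perivascular type of tissue macrophage.

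Upstream sequences of the genes are shown because ETS factors, such as Erg and Fli1, bind the promoters of many endothelial genes. RefSeq promoters on GRCm38.p6 were at hand for 7 of the 10 genes (Stab2, Clec4g, Aqp1, Igfbp7, Cyp4b1, Clec14a and Adgrf5), 8 promoters in all since Adgrf5 has 2. Capitals mark each match to the ETS core CCGGAA or CAGGAA, searched on both strands in the 250 bases before the start site, and sequences read 5′ to 3′ along the strand of the gene. They are Stab2 (chr10:87008026-87008192, minus strand), Clec4g (chr8:3720652-3720901, minus strand), Clec14a (chr12:58269291-58269508, minus strand) and Adgrf5 (chr17:43360181-43360430, plus strand, the outer of its promoters), each stopped short of the annotated gene.
Stab2: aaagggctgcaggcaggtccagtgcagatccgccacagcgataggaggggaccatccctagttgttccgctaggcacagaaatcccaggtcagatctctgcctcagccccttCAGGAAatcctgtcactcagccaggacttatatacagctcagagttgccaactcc
Clec4g: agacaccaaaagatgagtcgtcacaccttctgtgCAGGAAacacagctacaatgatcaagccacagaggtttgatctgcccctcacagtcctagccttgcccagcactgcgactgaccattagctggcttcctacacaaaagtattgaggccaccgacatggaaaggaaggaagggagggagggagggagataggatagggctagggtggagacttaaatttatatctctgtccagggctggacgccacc
Clec14a: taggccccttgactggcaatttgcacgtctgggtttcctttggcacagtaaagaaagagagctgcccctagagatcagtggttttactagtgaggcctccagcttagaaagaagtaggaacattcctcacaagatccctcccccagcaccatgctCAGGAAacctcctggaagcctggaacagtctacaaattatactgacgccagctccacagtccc
Adgrf5: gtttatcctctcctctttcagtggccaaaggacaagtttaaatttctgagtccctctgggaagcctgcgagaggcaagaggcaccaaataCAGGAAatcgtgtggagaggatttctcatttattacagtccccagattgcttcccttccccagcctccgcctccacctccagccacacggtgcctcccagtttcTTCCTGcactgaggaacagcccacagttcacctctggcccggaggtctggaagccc

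The matched core began at base -138 from the RefSeq start site in Stab2, at -216 in Clec4g, at -95 in Clec14a and at -160 and -56 in Adgrf5. A match was held by 5 of the 8 member promoters and by 35.1% of 32851 mouse promoters of the same length. The GATA core (AGATAA or TGATAA) was found in 0 of the 8, against 16.6% of all promoters. A SOX core (ACAAAG or ACAATG) occurred in Clec4g, against 25.2% of all promoters, and an AP-1 core (TGANTCA) in Cyp4b1, against 6.75%. The FOX core GTAAACA and the EGR core GCGNGGGCG were found in 0 of the 8, against 3.17% and 4.70% of all promoters. Such matches describe letters in a window and do not show a bound site.

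On GRCm38 (GENCODE vM21) the 10 genes lay on 9 chromosomes. Among the sinusoidal genes, Stab2 occupied 10:86841198-87008025 on the minus strand, Lyve1 7:110850607-110863239 on the minus strand, Clec4g 8:3707064-3720651 on the minus strand and Oit3 10:59422958-59441778 on the minus strand. Aqp1 lay at 6:55336432-55348555 on the plus strand and Igfbp7 at 5:77349240-77408041 on the minus strand. Gpihbp1 lay at 15:75596628-75599481 on the plus strand, Cyp4b1 at 4:115624725-115647723 on the minus strand, Clec14a at 12:58264720-58269290 on the minus strand and Adgrf5 at 17:43360451-43459557 on the plus strand. All are protein coding, and each value counts reads over a whole gene. Igfbp7 overlaps Polr2b on the opposite strand. Polr2b, a subunit of RNA polymerase II, was at 42.3 ± 2.91 TPM in Lyz2cre/+.Egr2fl/fl and 40.8 ± 3.94 TPM in Egr2fl/fl (SD, n = 3 each), and since the use of strand in counting is not stated, reads of the pair cannot be told apart where they overlap.

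The labels held at the targeted gene. Egr2 was at 9.08, 9.64 and 10.5 TPM in Lyz2cre/+.Egr2fl/fl, against 123, 120.2 and 126 TPM in Egr2fl/fl, 12.6-fold lower. Libraries held at least 6497770 to 8569062 reads. Over the 13777 genes whose mean reached 1 TPM, limma on log2(TPM + 1) called 603 higher in Lyz2cre/+.Egr2fl/fl (4.38%) and 257 lower (1.87%) at a Benjamini-Hochberg adjusted p below 0.05, and 2336 (17.0%) had all Lyz2cre/+.Egr2fl/fl libraries above all Egr2fl/fl libraries. The sort was rich in macrophage transcripts in both genotypes. Its 18 pan-macrophage genes summed to 38334 to 38766 TPM in Lyz2cre/+.Egr2fl/fl and 37681 to 41373 TPM in Egr2fl/fl. Single genes moved in opposite directions, as limma called 4 of the 18 higher (22.2%) and 1 lower. Lyz2, whose promoter drives the Cre, was the lower one, at 6502 ± 118 TPM in Lyz2cre/+.Egr2fl/fl and 10719 ± 838 TPM in Egr2fl/fl (SD, n = 3 each, limma adjusted p = 0.0013). The genotype label puts the Cre at 1 Lyz2 allele. For Lyz2, an effect of that allele cannot be told apart from loss of Egr2. Adgre1 was higher, at 1230 ± 42.3 TPM in Lyz2cre/+.Egr2fl/fl and 924 ± 48.4 TPM in Egr2fl/fl (limma adjusted p = 0.0063). Egr2fl/fl replicate 3 stood apart in its hepatocyte transcripts. Its 22 hepatocyte genes summed to 1095 TPM, the highest of the 6 libraries, and without it the ratios of the 10 endothelial genes ran over 4.70 to 7.40.

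Each of the 10 endothelial genes had its higher values in Lyz2cre/+.Egr2fl/fl. The ratio of mean TPM ran over 4.79 to 7.91, with a median of 6.83, against a median of 1.03 over all tested genes. The libraries of the genotypes did not overlap for any of the 10, a count that the choice of the genes fixes and from which nothing is read beside the 17.0% of all genes. Their sum was 515, 611 and 562 TPM in Lyz2cre/+.Egr2fl/fl, against 109.9, 79.0 and 79.8 TPM in Egr2fl/fl, a ratio of means of 6.29. It made up 0.0516 to 0.0613% of the table in Lyz2cre/+.Egr2fl/fl and 0.00791 to 0.0110% in Egr2fl/fl, so these were minor transcripts of the sort in both genotypes. In bulk samples more cells of a type and more RNA per cell cannot be told apart.

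**Figure D1:**
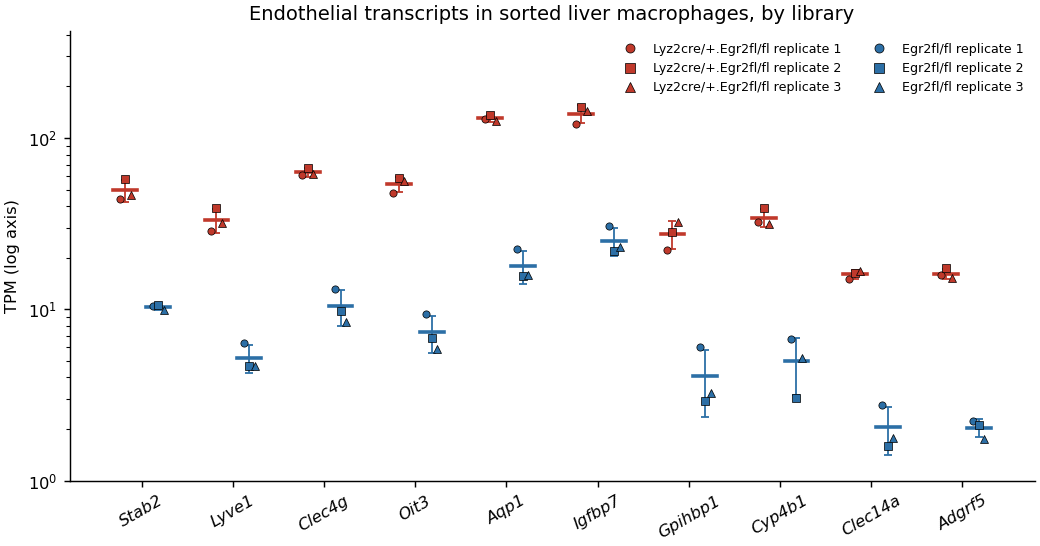
TPM of the 10 endothelial genes on a log axis, with Lyz2cre/+.Egr2fl/fl libraries in red on the left and Egr2fl/fl libraries in blue on the right of each gene. Points are libraries, shaped by replicate, and bars are the mean ± SD (n = 3 each). The red points lie above the blue points for each gene, least apart for Gpihbp1 (lowest red over highest blue 3.65) and most for Adgrf5 (6.76).

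The sinusoidal scavenger genes came first in the selection. Stab2, an endocytic receptor that clears hyaluronan from blood, was at 44.0, 57.6 and 46.7 TPM in Lyz2cre/+.Egr2fl/fl, against 10.4, 10.7 and 9.94 TPM in Egr2fl/fl. The Egr2fl/fl libraries were close to each other (SD 0.364 TPM), and every Lyz2cre/+.Egr2fl/fl library was at least 4.13 times the highest of them. Its ratio of means, 4.79, was the smallest of the 10.

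Lyve1, a membrane receptor for hyaluronan, was at 28.5, 39.0 and 32.0 TPM in Lyz2cre/+.Egr2fl/fl, against 6.31, 4.63 and 4.69 TPM in Egr2fl/fl, a ratio of means of 6.36. Replicate 2 was the highest Lyz2cre/+.Egr2fl/fl library for both hyaluronan receptors, while the highest Egr2fl/fl library was replicate 2 for Stab2 and replicate 1 for Lyve1. Clec4g, the C-type lectin LSECtin of the sinusoid, was at 60.9, 67.2 and 61.3 TPM in Lyz2cre/+.Egr2fl/fl, against 13.2, 9.77 and 8.38 TPM in Egr2fl/fl, a ratio of 6.04. The Lyz2cre/+.Egr2fl/fl libraries spread little (SD 3.55 TPM), and the groups stood well apart. Oit3, a zona pellucida domain protein, was at 47.9, 58.3 and 55.9 TPM in Lyz2cre/+.Egr2fl/fl, against 9.33, 6.77 and 5.87 TPM in Egr2fl/fl. Its ratio of means, 7.38, was the largest of the 4 sinusoidal genes.

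The most abundant members were shared by many endothelia. Aqp1, a water channel, was at 128, 136 and 125 TPM in Lyz2cre/+.Egr2fl/fl, against 22.4, 15.6 and 15.9 TPM in Egr2fl/fl, a ratio of 7.24. Igfbp7, a secreted protein that binds insulin-like growth factors, was at 120.2, 152 and 145 TPM in Lyz2cre/+.Egr2fl/fl, against 30.5, 21.9 and 23.0 TPM in Egr2fl/fl, a ratio of 5.53. No other member reached the level of either gene in the same genotype. Polr2b, which overlaps Igfbp7, lay at 36.3 to 44.1 TPM over the 6 libraries.

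Gpihbp1 and Cyp4b1 stood for capillaries. Gpihbp1, which binds lipoprotein lipase and carries it to the capillary lumen, was at 22.1, 28.2 and 32.4 TPM in Lyz2cre/+.Egr2fl/fl, against 6.05, 2.92 and 3.24 TPM in Egr2fl/fl, a ratio of 6.78. It varied most among the 10 in both genotypes, with a coefficient of variation of 18.8% in Lyz2cre/+.Egr2fl/fl and 42.2% in Egr2fl/fl. Cyp4b1, a cytochrome P450 monooxygenase, was at 32.3, 39.0 and 31.6 TPM in Lyz2cre/+.Egr2fl/fl, against 6.70, 3.04 and 5.20 TPM in Egr2fl/fl, a ratio of 6.89. The lowest Egr2fl/fl library was replicate 2 for both capillary genes.

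Clec14a and Adgrf5 were the least abundant members. Clec14a, a C-type lectin domain protein of the vessel wall with a single annotated exon, was at 15.0, 16.3 and 16.8 TPM in Lyz2cre/+.Egr2fl/fl, against 2.77, 1.59 and 1.78 TPM in Egr2fl/fl, a ratio of 7.82. Adgrf5, an adhesion G protein-coupled receptor, was at 16.0, 17.3 and 15.1 TPM in Lyz2cre/+.Egr2fl/fl, against 2.24, 2.12 and 1.76 TPM in Egr2fl/fl, a ratio of 7.91. The order of the ratios did not hold without single libraries: without Egr2fl/fl replicate 1, Gpihbp1 (8.95) and Oit3 (8.55) were above Adgrf5 (8.32), and without Egr2fl/fl replicate 2, Oit3 (7.11) was above Clec14a (7.04). Low levels rested on few reads. Clec14a had at least 189 to 225 reads in Lyz2cre/+.Egr2fl/fl libraries and 19 to 43 in Egr2fl/fl libraries, Gpihbp1 had 128 to 199 in Lyz2cre/+.Egr2fl/fl and 16 to 43 in Egr2fl/fl, and Stab2 had 1001 to 1266 in Lyz2cre/+.Egr2fl/fl and 229 to 290 in Egr2fl/fl.

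Within each genotype the order of the levels was similar. In Lyz2cre/+.Egr2fl/fl it ran Igfbp7, Aqp1, Clec4g, Oit3, Stab2, Cyp4b1, Lyve1, Gpihbp1, Adgrf5 and Clec14a from high to low. The ranges of the libraries overlapped between the neighbours Igfbp7 and Aqp1, Oit3 and Stab2, Cyp4b1 and Lyve1, Lyve1 and Gpihbp1, and Adgrf5 and Clec14a. In Egr2fl/fl the order was Igfbp7, Aqp1, Clec4g, Stab2, Oit3, Lyve1, Cyp4b1, Gpihbp1, Clec14a and Adgrf5. There the ranges left gaps only below Aqp1, below Stab2 and below Gpihbp1.

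Libraries of a genotype also ranked alike over the members. Lyz2cre/+.Egr2fl/fl replicate 2 was the highest of its genotype for 8 of the 10 (replicate 3 for Gpihbp1 and Clec14a), and replicate 1 the lowest for 7. Egr2fl/fl replicate 1 was the highest of its genotype for 9 of the 10 (replicate 2 for Stab2) and was also the library with the most reads. The members share their libraries, so these ranks do not count as repeated evidence. The part of depth in the ranks was not tested.

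The make-up of the endothelial sum differed between genotypes for some members. Stab2 was 8.54, 9.42 and 8.32% of the sum in Lyz2cre/+.Egr2fl/fl, against 9.45, 13.5 and 12.5% in Egr2fl/fl. Igfbp7 was 23.3, 24.9 and 25.7% in Lyz2cre/+.Egr2fl/fl, against 27.7, 27.7 and 28.9% in Egr2fl/fl. Both had smaller shares in every Lyz2cre/+.Egr2fl/fl library, by a narrow margin for Stab2 (9.42 against 9.45% at the closest). Aqp1 was 24.9, 22.3 and 22.3% in Lyz2cre/+.Egr2fl/fl, against 20.4, 19.8 and 19.9% in Egr2fl/fl. Oit3, Clec14a and Adgrf5 likewise had larger shares in every Lyz2cre/+.Egr2fl/fl library, for Adgrf5 again by a narrow margin (2.70 against 2.68% at the closest), with means of 9.60, 2.85 and 2.87% in Lyz2cre/+.Egr2fl/fl and 8.14, 2.26 and 2.31% in Egr2fl/fl. The shares of Lyve1, Clec4g, Gpihbp1 and Cyp4b1 overlapped between the genotypes. Shares of a sum are tied to each other, and these come from the contrast that chose the genes.

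**Figure D2:**
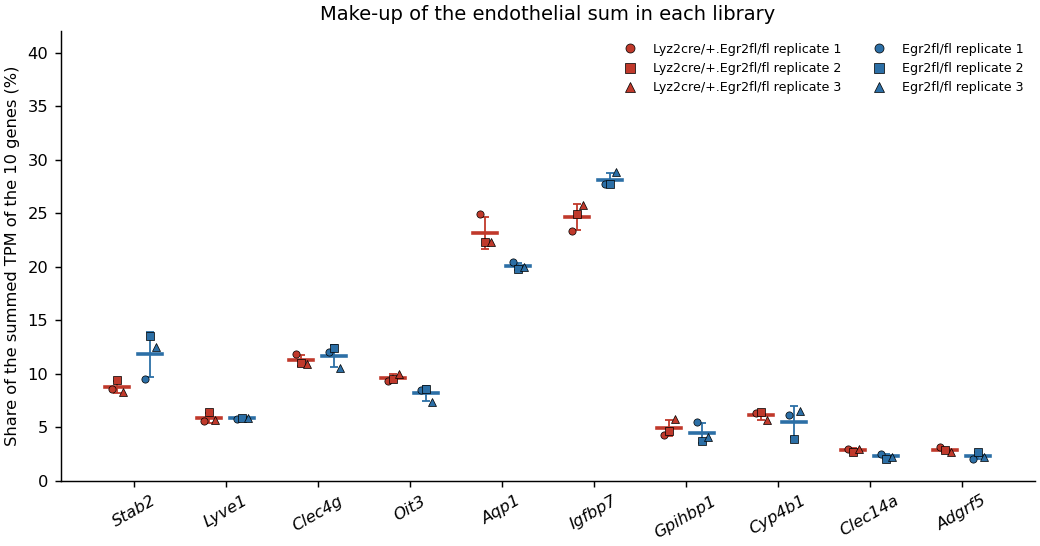
Share of each gene in the summed TPM of the 10 genes (%), Lyz2cre/+.Egr2fl/fl in red on the left and Egr2fl/fl in blue on the right. Points are libraries, shaped by replicate, and bars are the mean ± SD (n = 3 each). Stab2 and Igfbp7 have lower shares in the red libraries (means of 8.76 and 24.7%) than in the blue libraries (11.8 and 28.1%), and Aqp1 a higher share (23.2 against 20.0%).

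Against macrophage transcripts the ratio was about as large as in TPM. The pan-macrophage sum includes Lyz2, its most abundant gene, which was lower in Lyz2cre/+.Egr2fl/fl (6502 against 10719 TPM). Per 1000 TPM of the pan-macrophage genes, the sum of the members was 13.4, 16.0 and 14.5 TPM in Lyz2cre/+.Egr2fl/fl, against 2.92, 1.91 and 2.03 TPM in Egr2fl/fl, a ratio of 6.40. Per 1000 TPM of 16 Kupffer cell genes it was 60.2, 69.7 and 75.8 TPM in Lyz2cre/+.Egr2fl/fl, against 29.8, 18.9 and 19.4 TPM in Egr2fl/fl, a ratio of 3.02. The groups did not overlap on either scale, and the smaller ratio on the Kupffer scale came with a Kupffer sum of 7417 to 8769 TPM in Lyz2cre/+.Egr2fl/fl and 3684 to 4171 TPM in Egr2fl/fl. Limma called 12 of these 16 genes higher (75%, against 4.38% of all genes) and 0 lower. The smallest p belonged to Cd5l, Il18bp, Slc40a1 and Cd207. Cd5l was at 2660 ± 205 TPM in Lyz2cre/+.Egr2fl/fl and 1082 ± 99.9 TPM in Egr2fl/fl (SD, n = 3 each, limma adjusted p = 0.000443). Folr2, a folate receptor of resident macrophages, was at 266 ± 28.2 TPM in Lyz2cre/+.Egr2fl/fl and 80.9 ± 20.0 TPM in Egr2fl/fl (SD, n = 3 each), with a limma adjusted p of 0.00328. The part of Kupffer cells in the endothelial values was not tested.

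Other endothelial genes were higher in the same libraries. Lists of sinusoidal, pan-endothelial, capillary, large vessel and lymphatic genes were used with the 10 members left out. They held 126 genes, of which 94 were measured and 93 tested. The lists were chosen with earlier results of these data known, so their counts describe the data and do not test the lists. Limma called 66 of the 93 higher (71.0%, against 4.38% of all genes) and 1 lower (against 1.87%), and 26 did not pass. The filter used the mean over both genotypes, so some list genes were tested only through their level in Lyz2cre/+.Egr2fl/fl. Examples, named after their values were seen, are Nos3 (2.99 against 0.283 TPM in Egr2fl/fl) and Wnt2 (6.10 against 0.601 TPM). Such genes had little room to be called lower, and the counts of the single lists share this limit. Without the filter 65 were higher. The median log2 difference of these genes was 1.49, against 0.04 over all genes tested. The calls rested unevenly on single libraries: between 49 and 59 of the 93 were called higher when any 1 library was left out, and 44 of the 66 were called in all 6 such fits.

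**Figure D3:**
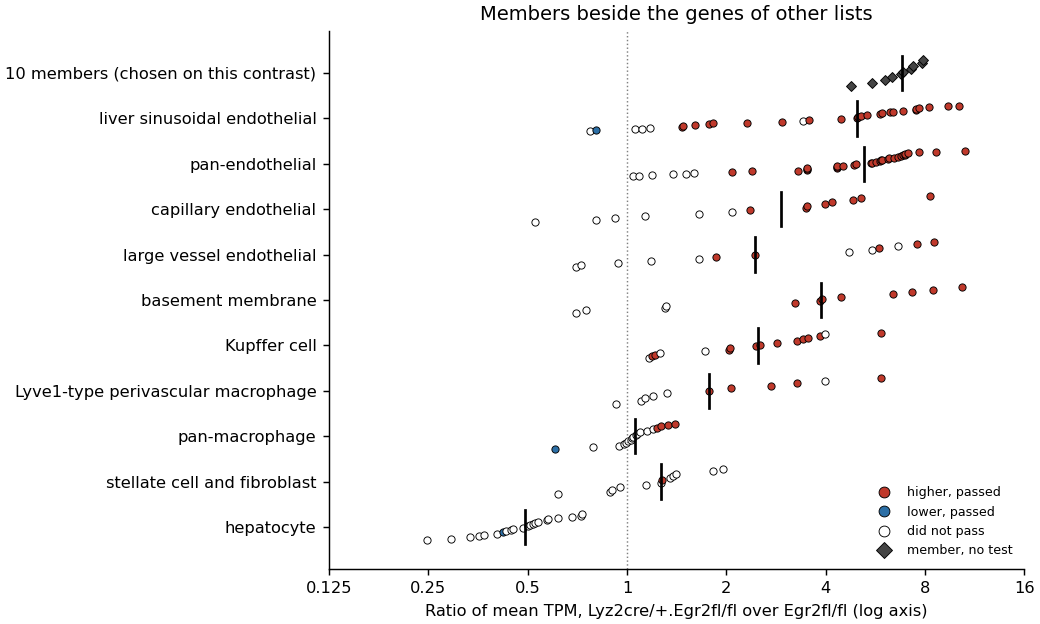
Ratio of mean TPM, Lyz2cre/+.Egr2fl/fl over Egr2fl/fl, on a log axis for the 10 members (diamonds, not tested) and for tested genes of 10 other lists (circles). Red circles passed the limma test as higher, blue circles as lower, open circles did not pass, and vertical bars are medians. The medians are 4.99 for the sinusoidal, 5.23 for the pan-endothelial and 0.492 for the hepatocyte list. The hepatocyte genes summed to 266 to 1095 TPM in Egr2fl/fl, with the highest sum in replicate 3. Their median without that library was not computed.

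In the sinusoidal list 25 of 31 tested genes were higher (80.6%, against 4.38% of all genes) and 1 was lower. Their median ratio of mean TPM was 4.99. Kdr, the main signalling receptor for VEGF-A, was at 31.7, 37.8 and 32.0 TPM in Lyz2cre/+.Egr2fl/fl, against 7.41, 6.40 and 6.07 TPM in Egr2fl/fl (log2 difference 2.19 ± 0.12 SE, limma adjusted p = 0.00029). Ehd3, a membrane trafficking ATPase, averaged 39.7 ± 2.62 TPM in Lyz2cre/+.Egr2fl/fl and 6.71 ± 1.23 TPM in Egr2fl/fl (SD, n = 3 each, limma adjusted p = 0.000324). The DNase gene Dnase1l3 averaged 41.2 ± 2.61 TPM in Lyz2cre/+.Egr2fl/fl and 11.5 ± 0.765 TPM in Egr2fl/fl, and the C-type lectin gene Clec1b, also known from Kupffer cells and platelets, averaged 229 ± 7.62 TPM in Lyz2cre/+.Egr2fl/fl and 98.8 ± 5.06 TPM in Egr2fl/fl, both with a limma adjusted p of 0.00029. These 4 genes were called in every fit without a library.

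Of the 5 sinusoidal genes that did not pass, 3 are named. Thbd, the anticoagulant receptor thrombomodulin, was at 53.7 ± 3.13 TPM in Lyz2cre/+.Egr2fl/fl and 48.4 ± 16.4 TPM in Egr2fl/fl (SD, n = 3 each), and Lgals9, a galectin, at 358 ± 18.8 TPM in Lyz2cre/+.Egr2fl/fl and 339 ± 22.3 TPM in Egr2fl/fl. Dkk3, a secreted dickkopf family protein, was low, at 1.61 ± 0.252 TPM in Lyz2cre/+.Egr2fl/fl and 0.470 ± 0.339 TPM in Egr2fl/fl, with a limma adjusted p of 0.173. Fcgr2b, the inhibitory Fc receptor that macrophages and sinusoidal endothelium both use, was the list gene called lower and is named after its values were seen. It was at 243, 233 and 254 TPM in Lyz2cre/+.Egr2fl/fl, against 298, 317 and 289 TPM in Egr2fl/fl (limma adjusted p = 0.0228), a call lost without any of 4 libraries, namely Lyz2cre/+.Egr2fl/fl replicates 1 and 2 and Egr2fl/fl replicates 1 and 2 (highest adjusted p = 0.0897).

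Of 36 pan-endothelial genes, 30 were higher (83.3%, against 4.38% of all genes) and 0 were lower. Cdh5, the cadherin of endothelial junctions, was at 124, 137 and 118 TPM in Lyz2cre/+.Egr2fl/fl, against 31.7, 38.2 and 38.2 TPM in Egr2fl/fl. Ptprb, the endothelial receptor phosphatase, averaged 18.9 ± 1.38 TPM in Lyz2cre/+.Egr2fl/fl and 2.74 ± 0.287 TPM in Egr2fl/fl (SD, n = 3 each). Adgrl4, an adhesion receptor of endothelium, averaged 14.3 ± 0.810 TPM in Lyz2cre/+.Egr2fl/fl and 2.06 ± 0.0973 TPM in Egr2fl/fl. The limma adjusted p was 0.00029 for each of these 3 genes, and none lost the call without a library. Eng, a co-receptor for BMP9 that macrophages can also express, averaged 97.3 ± 4.12 TPM in Lyz2cre/+.Egr2fl/fl and 40.5 ± 2.72 TPM in Egr2fl/fl (limma adjusted p = 0.000327). Cd93, a C-type lectin domain receptor of the same group as Clec14a that myeloid cells also express, did not pass, at 302 ± 9.07 TPM in Lyz2cre/+.Egr2fl/fl and 290 ± 27.9 TPM in Egr2fl/fl (limma adjusted p = 0.721). The transcription factor genes Fli1 and Tal1 did not pass either, Fli1 at 73.0 ± 2.57 TPM in Lyz2cre/+.Egr2fl/fl and 67.0 ± 5.17 TPM in Egr2fl/fl. Erg, an ETS factor gene like Fli1 and named after its values were seen, was higher (limma adjusted p = 0.0221). It was at 8.21 ± 2.64 TPM in Lyz2cre/+.Egr2fl/fl and 2.49 ± 0.660 TPM in Egr2fl/fl, and kept the call in 2 of the 6 fits without a library.

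Capillary and large vessel genes were called in part. Of 14 capillary genes 8 were higher (57.1%, against 4.38% of all genes) and 0 lower. Cavin2, a coat protein of caveolae, averaged 12.1 ± 3.24 TPM in Lyz2cre/+.Egr2fl/fl and 1.45 ± 0.166 TPM in Egr2fl/fl (SD, n = 3 each, limma adjusted p = 0.00147), and Cd300lg, a capillary glycoprotein, averaged 20.8 ± 0.994 TPM in Lyz2cre/+.Egr2fl/fl and 5.96 ± 1.94 TPM in Egr2fl/fl (limma adjusted p = 0.0040). The fatty acid genes of that list that macrophages also use did not pass: Cd36 was at 826 ± 9.04 TPM in Lyz2cre/+.Egr2fl/fl and 899 ± 44.6 TPM in Egr2fl/fl, and Fabp4 at 149 ± 21.5 TPM in Lyz2cre/+.Egr2fl/fl and 131 ± 11.2 TPM in Egr2fl/fl. Of 13 large vessel genes 5 were higher (38.5%, against 4.38% of all genes) and 0 lower. Ltbp4, a matrix protein that binds latent TGF-beta, averaged 14.1 ± 2.90 TPM in Lyz2cre/+.Egr2fl/fl and 1.66 ± 0.288 TPM in Egr2fl/fl (limma adjusted p = 0.000715), and Gja4, the arterial connexin 37, averaged 8.77 ± 1.31 TPM in Lyz2cre/+.Egr2fl/fl and 1.16 ± 0.614 TPM in Egr2fl/fl (limma adjusted p = 0.00383). Cd34 did not pass, at 20.9 ± 3.21 TPM in Lyz2cre/+.Egr2fl/fl and 22.2 ± 2.93 TPM in Egr2fl/fl. The single lymphatic gene measured, Pdpn, was at 1.19 ± 0.353 TPM in Lyz2cre/+.Egr2fl/fl and 1.19 ± 0.533 TPM in Egr2fl/fl and did not pass.

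The ratio of an endothelial gene went with its level. Split at a mean of 50 TPM over all 6 libraries, a value chosen after the data were seen, the 76 list genes below it had a median ratio of 5.01, and 58 of the 75 tested were higher. Some of the 75 passed the filter only through their level in Lyz2cre/+.Egr2fl/fl, which favours high ratios among them. The 18 genes at or above it had a median ratio of 1.18, and 8 were higher and 1 lower. Among the members, Aqp1 and Igfbp7 lay above 50 TPM and had ratios of 7.24 and 5.53. The highest ratio among the 18 abundant list genes was 3.50, for Cdh5.

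**Figure D4:**
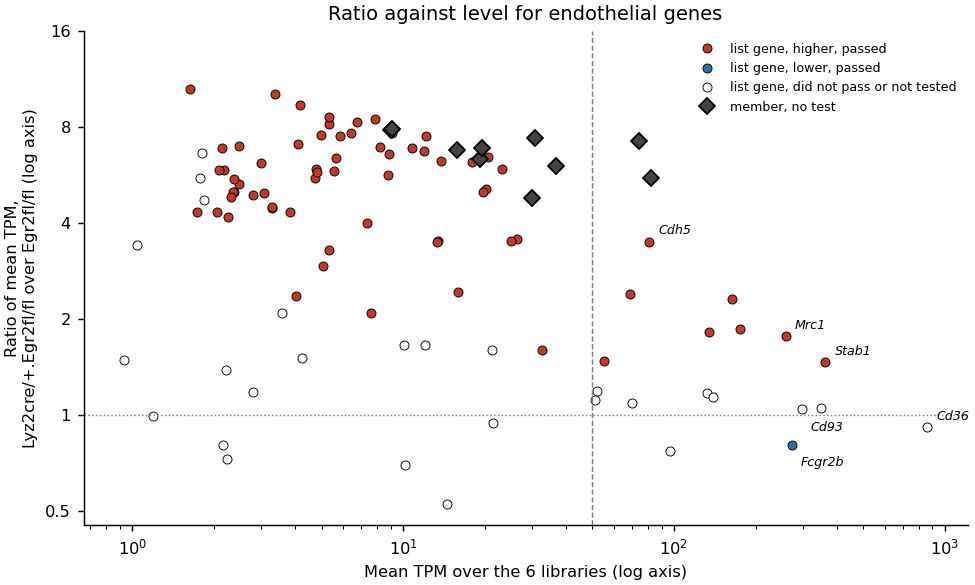
Ratio of mean TPM, Lyz2cre/+.Egr2fl/fl over Egr2fl/fl, against the mean TPM over the 6 libraries, both on log axes, for the endothelial list genes (circles, coloured as passed higher, passed lower or neither) and the 10 members (diamonds, not tested). The dashed line marks 50 TPM. Abundant list genes such as Cd93, Cd36 and Fcgr2b lie near 1, while the members lie between 4.79 and 7.91.

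Set against the endothelial genes themselves, the members stood higher by less. Per 1000 TPM of all 36 pan-endothelial genes, the sum of the members was 521, 598 and 545 TPM in Lyz2cre/+.Egr2fl/fl, against 182, 137 and 154 TPM in Egr2fl/fl, a ratio of means of 3.52. Cd93 alone made up 28.4 to 31.5% of that pan-endothelial sum in Lyz2cre/+.Egr2fl/fl and 49.8 to 52.2% in Egr2fl/fl. Against the 31 pan-endothelial genes under 50 TPM, a scale added after the data were seen, the ratio was 1.51, and the single members ran from 1.12 for Stab2 to 1.90 for Clec14a.

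The genes whose profiles were most like that of the members were endothelial as well. Likeness was the root mean square distance between the centred log2(TPM + 1) profile of a gene and the mean centred profile of the members over the 6 libraries, computed for 10199 other genes whose mean reached 5 TPM. The nearest 10 were Ptprb (0.105), Flt4 (0.110), Tinagl1 (0.114), Ehd3 (0.136), Egfl7 (0.152), Esam (0.160), Adam23 (0.161), Adgrl4 (0.163), Robo4 (0.164) and Gja1 (0.166), against a median distance of 1.26. On the endothelial lists were 9 of the 10, and Gja1, the connexin 43 gene, was on none. The members were chosen on this contrast, so genes with a like gap between genotypes lie near them whatever their type. The lists were chosen with earlier results of these data known, so the 9 of 10 is a description. Among the members the distance ran from 0.058 for Clec14a to 0.243 for Stab2. Flt4, the receptor for VEGF-C, averaged 21.4 ± 2.45 TPM in Lyz2cre/+.Egr2fl/fl and 2.85 ± 0.729 TPM in Egr2fl/fl (SD, n = 3 each).

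Most paralogues of the members did not pass. Of 22 tested paralogues 5 were higher (22.7%, against 4.38% of all genes) and 1 was lower (against 1.87%). Stab1 and Adgrl4 are also on the endothelial lists. Stab1, the paralogue of Stab2 that macrophages also express, was at 399, 412 and 482 TPM in Lyz2cre/+.Egr2fl/fl, against 309, 295 and 276 TPM in Egr2fl/fl (log2 difference 0.55 ± 0.08 SE, limma adjusted p = 0.0105). Igfbp4, another binding protein of insulin-like growth factors, averaged 57.7 ± 7.21 TPM in Lyz2cre/+.Egr2fl/fl and 31.7 ± 1.54 TPM in Egr2fl/fl (SD, n = 3 each, limma adjusted p = 0.00486). Adgrg3, an adhesion receptor like Adgrf5, averaged 8.14 ± 0.160 TPM in Lyz2cre/+.Egr2fl/fl and 1.49 ± 0.806 TPM in Egr2fl/fl (limma adjusted p = 0.00579). Cd44, a hyaluronan receptor with a link domain like that of Lyve1, is named after its values were seen and did not pass, at 365 TPM in Lyz2cre/+.Egr2fl/fl and 351 TPM in Egr2fl/fl. Cyp4f18, also named after its values were seen, was the paralogue called lower, at 221 ± 21.8 TPM in Lyz2cre/+.Egr2fl/fl and 300.5 ± 0.964 TPM in Egr2fl/fl (limma adjusted p = 0.0158), and it lost the call when Lyz2cre/+.Egr2fl/fl replicate 1 or any Egr2fl/fl library was left out (largest adjusted p = 0.0593).

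Of 14 tested ligands and partners of the members, 3 were higher (21.4%, against 4.38% of all genes) and 1 was lower (against 1.87%). Mmrn2, the matrix ligand of Clec14a in vessels, was at 9.64, 13.9 and 10.6 TPM in Lyz2cre/+.Egr2fl/fl, against 2.22, 1.45 and 0.768 TPM in Egr2fl/fl (limma adjusted p = 0.00355). Hyal2, a hyaluronidase, averaged 14.9 ± 1.41 TPM in Lyz2cre/+.Egr2fl/fl and 7.85 ± 0.487 TPM in Egr2fl/fl (SD, n = 3 each, limma adjusted p = 0.00735), and Cemip2, linked to hyaluronan breakdown, averaged 13.7 ± 0.654 TPM in Lyz2cre/+.Egr2fl/fl and 7.09 ± 1.26 TPM in Egr2fl/fl (limma adjusted p = 0.0142). Cemip2 lost the call without Lyz2cre/+.Egr2fl/fl replicate 1 (adjusted p = 0.0695). Lpl, the lipase that Gpihbp1 carries and that macrophages make, did not pass, at 2309 ± 34.7 TPM in Lyz2cre/+.Egr2fl/fl and 2415 ± 62.3 TPM in Egr2fl/fl, and is named after its values were seen. Vegfa was lower, at 86.1, 138 and 84.9 TPM in Lyz2cre/+.Egr2fl/fl, against 205, 174 and 221 TPM in Egr2fl/fl (limma adjusted p = 0.0293), and lost the call when any library but Lyz2cre/+.Egr2fl/fl replicate 2 was left out (largest adjusted p = 0.106).

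Genes of the vascular basement membrane were higher too, 8 of 12 tested (66.7%, against 4.38% of all genes) and 0 lower. Col4a1, a collagen IV chain, averaged 22.2 ± 1.06 TPM in Lyz2cre/+.Egr2fl/fl and 5.69 ± 0.576 TPM in Egr2fl/fl (SD, n = 3 each, limma adjusted p = 0.000337). Hspg2, the proteoglycan perlecan, averaged 10.9 ± 2.28 TPM in Lyz2cre/+.Egr2fl/fl and 1.05 ± 0.287 TPM in Egr2fl/fl (limma adjusted p = 0.00103). Collagen I of fibroblasts was low, with Col1a1, named after its values were seen, at 1.08 ± 0.261 TPM in Lyz2cre/+.Egr2fl/fl and 1.13 ± 0.545 TPM in Egr2fl/fl, and it did not pass.

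Markers of other cells were called in both directions. Over all genes 4.38% were called higher and 1.87% lower. Of 12 tested stellate cell and fibroblast genes 1 was higher (Ecm1, 134 ± 7.21 TPM in Lyz2cre/+.Egr2fl/fl and 105 ± 3.86 TPM in Egr2fl/fl, SD, n = 3 each, limma adjusted p = 0.0192) and 0 were lower, with sums of 204 to 214 TPM in Lyz2cre/+.Egr2fl/fl and 165 to 191 TPM in Egr2fl/fl. Ecm1 lost the call when Lyz2cre/+.Egr2fl/fl replicate 1 or 2 or Egr2fl/fl replicate 2 or 3 was left out (largest adjusted p = 0.0847). This single gene made up most of the stellate and fibroblast sums. Of 22 hepatocyte genes 0 were higher and 1 was lower (Ass1, 49.1 ± 7.06 TPM in Lyz2cre/+.Egr2fl/fl and 116 ± 14.7 TPM in Egr2fl/fl, limma adjusted p = 0.00309), with sums of 229 to 411 TPM in Lyz2cre/+.Egr2fl/fl and 266 to 1095 TPM in Egr2fl/fl. Ass1 varied less than that sum in Egr2fl/fl, at 116, 102 and 131 TPM over replicates 1 to 3. Which cells gave the Ass1 reads was not tested. Of 5 tested neutrophil genes 2 were lower and 0 higher. Their sums were 144 to 161 TPM in Lyz2cre/+.Egr2fl/fl and 165 to 182 TPM in Egr2fl/fl. Most of each sum was Csf3r, which did not pass (limma adjusted p = 0.136). Csf3r was at 133 ± 5.23 TPM in Lyz2cre/+.Egr2fl/fl and 152 ± 8.10 TPM in Egr2fl/fl. S100a8, a neutrophil calcium-binding protein, was at 1.73 ± 0.443 TPM in Lyz2cre/+.Egr2fl/fl and 6.24 ± 2.27 TPM in Egr2fl/fl (SD, n = 3 each, limma adjusted p = 0.0324), and its partner S100a9 at 0.449 ± 0.389 TPM in Lyz2cre/+.Egr2fl/fl and 3.19 ± 0.232 TPM in Egr2fl/fl (limma adjusted p = 0.0239). Of 6 tested T, NK and B cell genes 1 was higher and 1 lower, with sums of 79.2 to 114 TPM in Lyz2cre/+.Egr2fl/fl and 61.6 to 88.0 TPM in Egr2fl/fl. The B cell receptor gene Cd79b was higher, at 57.4 ± 4.15 TPM in Lyz2cre/+.Egr2fl/fl and 37.8 ± 6.57 TPM in Egr2fl/fl (limma adjusted p = 0.0431), and the NK cell gene Klrb1c lower, at 0.356 ± 0.309 TPM in Lyz2cre/+.Egr2fl/fl and 2.42 ± 0.556 TPM in Egr2fl/fl (limma adjusted p = 0.0463). None of these 4 calls was stable. S100a9 kept its call in 2 of the 6 fits without a library, those without Lyz2cre/+.Egr2fl/fl replicate 2 or 3 (largest adjusted p = 0.0868). S100a8 kept it only without Egr2fl/fl replicate 2 (largest adjusted p = 0.107), Cd79b only without Egr2fl/fl replicate 1 (largest adjusted p = 0.145), and Klrb1c lost it whichever library was left out (largest adjusted p = 0.153). Erythroid, cholangiocyte and platelet lists held 2, 2 and 3 tested genes, of which Clec1b was higher. The sinusoidal list, some genes of which macrophages share, summed to 2407 to 2505 TPM in Lyz2cre/+.Egr2fl/fl and 1667 to 1764 TPM in Egr2fl/fl. Cd79a, on the same list as Cd79b and named after its values were seen, did not pass. It was at 1.71 ± 0.920 TPM in Lyz2cre/+.Egr2fl/fl and 1.72 ± 0.969 TPM in Egr2fl/fl. The part of the listed cells in the endothelial values was not tested, and neither was the part of macrophages in the list sums.

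Of 11 tested genes of the Lyve1-bearing perivascular macrophage, leaving out Lyve1, 5 were higher (45.5%, against 4.38% of all genes) and 0 lower. Mrc1, the mannose receptor that this type shares with sinusoidal endothelium, was at 339, 336 and 319 TPM in Lyz2cre/+.Egr2fl/fl, against 199, 180 and 181 TPM in Egr2fl/fl (limma adjusted p = 0.000547). Cd163, a haemoglobin scavenger receptor, was at 30.9, 73.6 and 31.8 TPM in Lyz2cre/+.Egr2fl/fl, against 5.78, 11.8 and 5.60 TPM in Egr2fl/fl (limma adjusted p = 0.0149), with replicate 2 the highest of each genotype. Leaving out Egr2fl/fl replicate 1 or 3 ended its call (largest adjusted p = 0.0602). For Timd4, a marker of long-lived Kupffer cells chosen after its values were seen, levels were at 18.5, 47.6 and 22.3 TPM in Lyz2cre/+.Egr2fl/fl, against 4.75, 12.9 and 4.53 TPM in Egr2fl/fl, and its limma adjusted p was 0.0598, which did not pass. Whether Lyve1 reads came from such macrophages was not tested.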

How the data were processed

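Macrophages sorted from mouse liver were sequenced in bulk, 3 libraries of each genotype from separate mice, grouped by the genotype in the labels. Per the labels, the RNA came from an RNeasy Micro kit and the libraries were directional. The paper's methods tie that library kit to a different sort, and the labels were followed. Reads were trimmed with Trimmomatic 0.39.0, aligned to GRCm38 (mm10) with HISAT2 2.2.1, cleared of duplicates and counted per gene with featureCounts 2.0.1 by the authors, who converted them to the deposited TPM values. TPM is relative to the library total, so a gene can be higher because others are lower.

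The members and gene lists were chosen with earlier results of these data known. The 13777 genes whose mean reached 1 TPM were fitted on log2(TPM + 1) by limma 3.58.1 (mean-variance trend, R 4.3.3, 2-sided, Benjamini-Hochberg, threshold 0.05), a scale that understates differences of low genes. Values after ± are SDs for TPM and standard errors for log2 differences, and folds are ratios of mean TPM. The steps of rare TPM values gave whole reads for all 13886 genes (tolerance 0.001 of a read), lower bounds of the true reads. Counting intervals at 95% cover counting error only. The naming rule took the members, Egr2 and the 10 nearest in profile. It also took up to 4 genes per list with the smallest p and up to 3 per endothelial list with the largest p. Some genes under the rule are left unnamed in the text, and genes outside it are marked where they appear. The limma fit was tested on simulated data. Alternatives covered the pseudocount, the filter, scaling, the variance model, voom on recovered reads, a replicate block and each library left out. No column of values was left unused (0).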

Additional observations from a re-analysis of the deposited data

How the results depend on the processing

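The members were higher in Lyz2cre/+.Egr2fl/fl under every alternative run, an outcome that their choice on this contrast largely fixes. Their ratios of mean TPM lay between 4.39 and 9.50 when any 1 library was left out, and that of their sum between 5.93 and 7.09. Relative to the pan-endothelial sum the ratio of the member sum was 3.52, and relative to pan-endothelial genes under 50 TPM, a scale added after seeing the data, it was 1.51, because those genes are themselves higher. With a pseudocount of 5 the log2 differences of 9 members moved by more than the replicate spread, to a range of 1.58 to 2.57 over the 10. Counts over all genes were less stable. Leaving out 1 library gave 303 to 437 genes higher, against 603, with the lowest counts without Lyz2cre/+.Egr2fl/fl replicate 1 (303) and 3 (345) and Egr2fl/fl replicate 3 (381) and 2 (397). It gave 136 to 202 lower, against 257, with 136 without Lyz2cre/+.Egr2fl/fl replicate 1, 155 without Egr2fl/fl replicate 1 and 167 without Egr2fl/fl replicate 3. Limma without a trend called 160 lower (the cause was not tested). Requiring a mean of 5 TPM left fewer endothelial list genes to test and 39 higher, against 66. Same-numbered libraries did not deviate together (correlations of -0.0261 to 0.0655 over 3 pairs). The labels name no pairing, and 3 correlations cannot exclude one. The main fit did not pair the samples. With a replicate block 301 genes were higher and 130 lower, and 48 endothelial list genes were higher. Depth limits Clec14a, Gpihbp1 and Cyp4b1 most, with as few as 15 reads in an Egr2fl/fl library.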
